A study of Mus musculus with 14 samples.

Results

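Intercalated cells are the acid-base cells of the connecting tubule and collecting duct of the kidney, and 10 genes that mark them or do their work were followed here. They were chosen by name as transporters, an enzyme, proton pump subunits and transcription factors of these cells, with earlier results of these data known. They are 10 of the 22263 genes listed in the kidney or the liver count table. RNA was sequenced from the kidney and liver of adult male mice, 12 weeks old, transgenic for human angiotensinogen (haplotype -6A), the precursor of angiotensin. All 4 groups carried the transgene: kidney on a normal diet (3 libraries), kidney on a high salt diet (3 libraries), liver on a normal diet (4 libraries) and liver on a high salt diet (4 libraries). The strain, the salt content and the length of feeding are not given in the sources used here, and no group without the transgene was analysed here. Nothing in the labels says that the libraries of a group came from separate animals, so p-values measure only the spread between these libraries, which may be technical. Differences between diets are given as the log2 of high salt over normal diet with the standard error (SE) of the edgeR fit.

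Collecting ducts contain 2 main forms of the cell. Type A cells secrete acid: carbonic anhydrase II makes protons and bicarbonate from carbon dioxide and water, a V-type proton pump at the luminal side drives the protons into the urine, and the exchanger AE1 returns bicarbonate to the blood. Type B cells work the other way round, with pendrin taking up chloride and secreting bicarbonate at the luminal side. Pendrin also takes part in the recovery of salt in this segment, so that a change of dietary salt is a natural setting in which to read these genes. Whole organs were sequenced, so fewer intercalated cells and less RNA per cell cannot be told apart.

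All 10 genes were listed in the kidney table and passed the filter on low counts there. Of these, 5 were listed in the liver table (Slc4a1, Slc26a4, Atp6v0d2, Car2 and Slc4a9), and 4 of the 5 passed the filter, Slc4a1 having too few counts. The other 5, Atp6v1b1, Atp6v1g3, Foxi1, Rhcg and Hmx2, are not rows of the liver table, in which every listed gene has a total of at least 10 counts. Principal cell markers of the same ducts behaved in the same way in the files: all 7 were listed in kidney and 1 in liver. Some libraries stood apart from the rest of their group. Over 11824 kidney genes with a mean of at least 50 counts, the SD of the log2 ratio between normal diet libraries 2 and 3 was 0.288, while library 1 differed from them with an SD of 0.867 and 0.895. High salt livers could not be tied to single titles and keep their column names, HS5 to HS8. Over 12190 liver genes HS5 and HS6 differed with an SD of only 0.156, against 0.415 to 0.972 in the other 11 pairs of livers on one diet. Kidney values without library 1 are given for each of the 10 genes, that of Slc4a9 further on with the changes of sign. Values with HS5 and HS6 summed are given with the results of Atp6v0d2. The defining genes of the labelled organs were also in place. Summed levels of 4 proximal tubule markers were 1682 to 2889 counts per 1000000 (CPM) in kidney and, in liver, 0.476 to 1.42 CPM on the normal diet and 1.19 to 6.94 CPM on high salt. Those of 4 hepatocyte markers were 46904 to 100742 CPM in liver and 34.1 to 101.9 CPM in kidney.

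Foxi1, a forkhead factor, is the master regulator of the intercalated cell and is known to act on several of the other genes. The letters TGTTTAC, a core forkhead motif, were therefore searched on both strands (the reverse is GTAAACA) in the 250 bases before the RefSeq start of each gene (build GRCm38.p6). Windows were found for 6 of the 10 genes, 7 windows in all. The windows of Foxi1 itself, of the pump subunits Atp6v1b1 and Atp6v1g3 and of the exchanger Slc26a4 are shown as those of the factor and of the subunits and the exchanger particular to these cells, with the only match among them; capitals mark a match, and each is written 5′ to 3′ on the strand of the gene. They lie at chr11:34208090-34208339 (minus strand, Foxi1), chr6:83742767-83743016 (plus strand, Atp6v1b1), chr1:138273488-138273737 (plus strand, Atp6v1g3) and chr12:31559985-31560234 (minus strand, Slc26a4).
Foxi1: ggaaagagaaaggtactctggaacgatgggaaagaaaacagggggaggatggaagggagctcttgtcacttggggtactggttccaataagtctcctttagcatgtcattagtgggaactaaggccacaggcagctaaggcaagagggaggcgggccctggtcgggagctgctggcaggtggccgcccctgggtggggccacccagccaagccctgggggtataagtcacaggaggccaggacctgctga
Atp6v1b1: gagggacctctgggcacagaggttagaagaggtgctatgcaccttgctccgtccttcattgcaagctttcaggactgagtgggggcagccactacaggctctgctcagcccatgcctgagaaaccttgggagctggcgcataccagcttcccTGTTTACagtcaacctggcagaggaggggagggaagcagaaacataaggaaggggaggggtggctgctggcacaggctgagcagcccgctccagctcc
Atp6v1g3: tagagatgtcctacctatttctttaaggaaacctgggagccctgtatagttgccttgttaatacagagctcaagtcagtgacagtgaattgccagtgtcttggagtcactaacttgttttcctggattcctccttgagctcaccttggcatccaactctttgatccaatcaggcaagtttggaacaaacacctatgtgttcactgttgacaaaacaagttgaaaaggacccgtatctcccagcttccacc
Slc26a4: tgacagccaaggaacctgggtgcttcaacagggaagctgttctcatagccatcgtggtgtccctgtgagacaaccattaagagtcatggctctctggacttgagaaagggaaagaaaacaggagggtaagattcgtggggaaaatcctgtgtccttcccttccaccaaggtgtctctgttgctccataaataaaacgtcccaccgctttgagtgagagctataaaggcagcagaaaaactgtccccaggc
Atp6v1b1 held 1 match, which began 98 bases before the start. No match lay in the windows of Foxi1, Atp6v1g3, Slc26a4, Rhcg or Hmx2, which says only that these letters are not in these windows. Of 32851 mouse promoter windows of the same length, 1040 (3.17%) held the motif.

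The transporters of the cell came first in the kidney comparison. Slc4a1 encodes AE1, the basolateral chloride-bicarbonate exchanger of type A cells, and also the band 3 protein of red cells. It lies at chr11:102348824-102366204 (mm10, coordinates as in the files). Its levels were 21.6, 8.96 and 7.99 CPM in normal diet libraries 1, 2 and 3 and 16.0, 9.39 and 15.1 CPM in high salt libraries 1, 2 and 3. Normal diet library 1 was more than double the other normal diet libraries, and the diets overlapped. On average it stood at 12.8 ± 7.58 CPM (SD, n = 3) and, on high salt, at 13.5 ± 3.58 CPM (SD, n = 3), giving a log2 difference of 0.072 (SE 0.40, unadjusted p = 0.862), which ran from -0.18 without normal diet library 3 to 0.68 without normal diet library 1.

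Slc26a4 encodes pendrin, the luminal chloride-bicarbonate exchanger of type B cells (chr12:31519827-31559970). It stood at 26.2, 19.7 and 17.2 on the normal diet, and at 27.1, 23.9 and 26.2 on high salt, in CPM. The high salt libraries lay together at the upper end, beside normal diet library 1. Its log2 difference was 0.29 (SE 0.21, unadjusted p = 0.200), and it ran from 0.16 without normal diet library 3 to 0.48 without normal diet library 1.

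Slc4a9 encodes AE4, a basolateral transporter of type B cells. Its levels were 11.5, 12.2 and 7.36 on the normal diet, and 11.1, 10.1 and 8.46 on high salt, in CPM, with the diets interleaved. The log2 difference was -0.064 (SE 0.25, unadjusted p = 0.806), from -0.26 without normal diet library 3 to 0.066 without normal diet library 2. Rhcg, a channel through which ammonia leaves the cell (chr7:79593363-79617658), stood at 19.5, 11.1 and 12.1 on the normal diet, and at 16.9, 16.4 and 17.3 on high salt, in CPM. The 3 high salt libraries fell between normal diet library 1 and the other 2. Its log2 difference was 0.25 (SE 0.25, unadjusted p = 0.344), from 0.097 without normal diet library 2 to 0.55 without normal diet library 1.

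Car2, carbonic anhydrase II, had the highest level of the 10 genes (chr3:14886273-14900771). It is also made in principal cells and in other segments of the tubule, so its level is less particular to intercalated cells than that of the others. The libraries held 158, 212 and 182 on the normal diet, and 132, 149 and 167 on high salt, in CPM. Normal diet libraries 2 and 3 were above all high salt libraries, and library 1 was not. The means were 184 ± 27.3 and 149 ± 17.6 CPM (3 libraries each, SD), giving a log2 difference of -0.30 (SE 0.21, unadjusted p = 0.187), from -0.19 without normal diet library 2 to -0.40 without normal diet library 1.

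The proton pump is built from a cytosolic V1 part that splits ATP and a membrane V0 part that carries the protons, and intercalated cells use their own versions of several subunits. Atp6v1b1 encodes B1, a V1 subunit (chr6:83742990-83758856). Its levels were 37.9, 18.4 and 15.9 on the normal diet, and 29.4, 17.6 and 15.9 on high salt, in CPM. Library 1 of each diet was high and the others were low, and the log2 difference was -0.20 (SE 0.38, unadjusted p = 0.616), from -0.52 without high salt library 1 to 0.30 without normal diet library 1. Atp6v0d2 encodes d2, a V0 subunit that is also made in osteoclasts and macrophages (chr4:19876841-19922606). It stood at 33.9, 22.4 and 19.5 on the normal diet, and at 23.5, 23.9 and 22.1 on high salt, in CPM. Normal diet library 1 alone was high, and the log2 difference was -0.13 (SE 0.24, unadjusted p = 0.606), from -0.28 without normal diet library 3 to 0.15 without normal diet library 1.

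Atp6v1g3 encodes G3, a V1 stalk subunit (chr1:138273738-138289463), and its libraries ran in another order. Its levels were 41.1, 99.7 and 89.9 on the normal diet, and 49.4, 73.0 and 36.8 on high salt, in CPM. Here normal diet library 1 was low, beside high salt libraries 1 and 3. The means were 76.9 ± 31.4 and 53.0 ± 18.4 CPM (3 libraries each, SD), giving a log2 difference of -0.54 (SE 0.38, unadjusted p = 0.192), from -0.31 without normal diet library 2 to -0.84 without normal diet library 1.

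Among the transcription factors, Foxi1 (chr11:34204338-34208090) stood at 17.8, 11.2 and 9.39 on the normal diet, and at 15.0, 11.0 and 15.5 on high salt, in CPM. The order of the libraries was close to that of Slc4a1. Its log2 difference was 0.11 (SE 0.28, unadjusted p = 0.703), from -0.072 without normal diet library 3 to 0.43 without normal diet library 1. Hmx2, a homeobox factor found in type B cells, was the least abundant (chr7:131548773-131558015), with 64, 33 and 49 counts on the normal diet and 44, 25 and 42 counts on high salt. These are 3.20, 1.93 and 2.37 CPM and 1.97, 1.58 and 1.91 CPM, and the diets overlapped by a single high salt library. The log2 difference was -0.46 (SE 0.31, unadjusted p = 0.177), from -0.61 without normal diet library 2 to -0.24 without normal diet library 1. Hmx2 overlaps Fgfr2 on the other strand, with 0 shared exon bases.

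**Figure D1:**
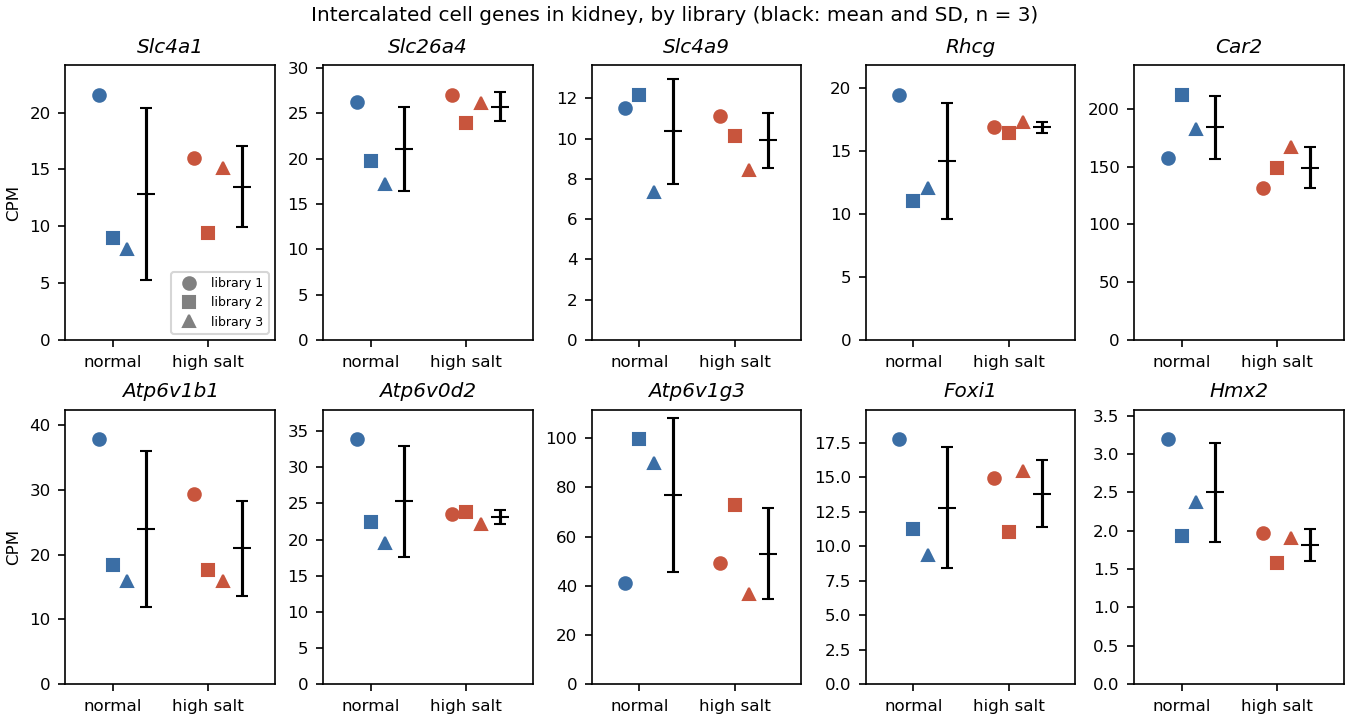
Level of each of the 10 genes in CPM on a linear axis from 0, by kidney library; blue is the normal diet, red is high salt, and marker shapes give the library number. Black marks are the mean and SD of 3 libraries. The diets overlap for all 10 genes, and normal diet library 1 is the highest of the 6 for 6 of them and the second lowest for Atp6v1g3.

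None of the 10 genes was called in kidney, where 0% of the 15847 genes tested passed an edgeR adjusted p of 0.05. The adjusted p was 0.9996 for each of the 10. At an unadjusted p under 0.05 there were 0 of the 10 genes and 318 of all genes (2.01%), and DESeq2 called 11 genes, none of them among the 10. The diets did not overlap for 0 of the 10 genes, against 6.92% of all genes. On the log2 scale 4 genes lay above zero and 6 below, with a median of -0.095 beside -0.025 over all genes tested. The standard errors of 0.21 to 0.40 set what these 6 libraries can resolve.

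**Figure D2:**
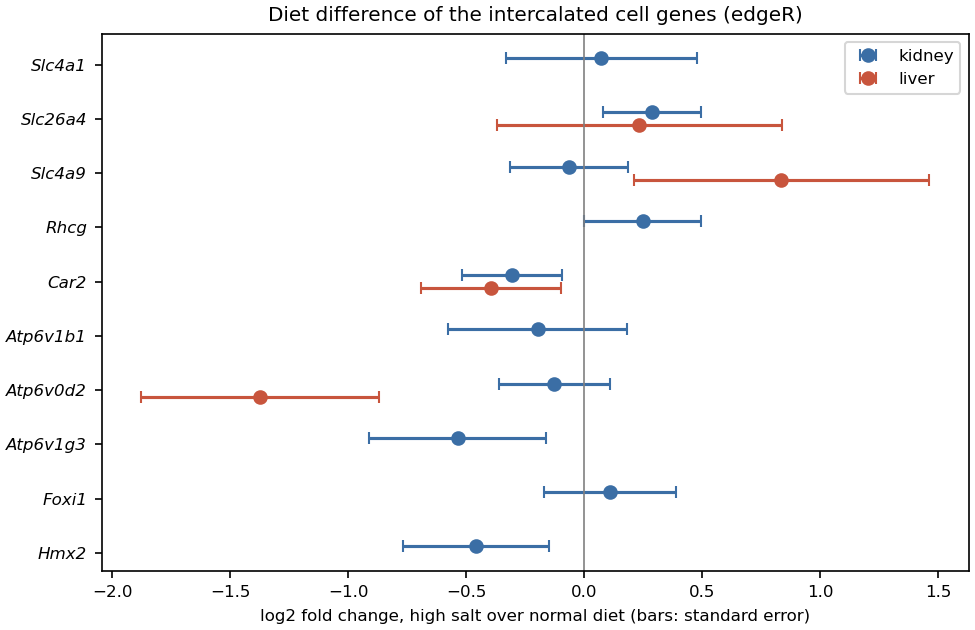
Log2 fold change of high salt over normal diet (x axis) for each gene, in kidney (blue) and liver (red), from edgeR; bars are 1 standard error. The kidney values lie between -0.54 and 0.29, and the liver value of Atp6v0d2 at -1.37 stands furthest from 0.

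The direction of 5 of these 10 kidney differences rested on single libraries. Normal diet library 1 was the highest of the 6 libraries for Slc4a1, Atp6v1b1, Atp6v0d2, Foxi1, Rhcg and Hmx2, which is 6 of the 10 genes against 29.1% of all genes. It was above both other normal diet libraries for these and for Slc26a4, which is 7 of the 10 against 44.9%. Without this library 7 of the 10 differences lay above zero and 3 below. The sign turned for Atp6v1b1, Atp6v0d2 and Slc4a9 (0.025). Slc4a1 turned without normal diet library 2 (-0.13), normal diet library 3 (-0.18), high salt library 1 (-0.065) and high salt library 3 (-0.015). Slc4a9 turned without normal diet library 2 (0.066) and without high salt library 3 (0.039), and Foxi1 without normal diet library 3 (-0.072).

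With normal diet library 1 left out, 4 of the 10 genes (40.0%) had an unadjusted p under 0.05, against 2627 of 16146 genes (16.3%). By edgeR those 4 were Slc4a1 (log2 difference 0.68, unadjusted p = 0.0246), Rhcg (0.55, unadjusted p = 0.0122), Slc26a4 (0.48, unadjusted p = 0.0199) and Atp6v1g3 (-0.84, unadjusted p = 0.0103). None of the 10 genes and no other gene was called in that edgeR fit, whose lowest adjusted p was 0.0533 over all genes and 0.243 over these. Only normal diet libraries 2 and 3 remain in it, the closest pair of kidney libraries on one diet (SD 0.288, against 0.427 to 0.895 in the others). The spread behind these p-values may therefore be understated, and the share over all genes was 2.01% with library 1 kept. The 4 genes are also correlated with each other, Atp6v1g3 negatively, so they are not separate results.

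Several other measures moved with normal diet library 1. Genes with long transcripts were high in it and genes with short ones low: its median log2 deviation from the mean of the 6 kidney libraries was -0.39 in the shortest of 3 equal classes of genes (up to 2003 bases), 0.040 in the middle class and 0.26 in the longest (from 3761 bases). The same medians in high salt library 1 were -0.13, 0.011 and 0.10. The 10 genes are set against that trend here. Slc4a1, with the longest transcript of the 10 (4545 bases), deviated by 0.80 in that library, and by 0.63 once the length trend of each library had been removed. Atp6v1b1 (1999 bases) deviated by 0.83, or 0.95 with the trend removed, Foxi1 (2357 bases) by 0.45 and 0.49, and Rhcg (2090 bases) by 0.35 and 0.45. Atp6v1g3 (1887 bases) lay at -0.56 and -0.42 with the trend removed, while Car2 (1788 bases), which is as short, lay at -0.062 and 0.10. With the length trend as an offset in the fit, 0 of the 10 genes were called and 403 of 15546 genes had an unadjusted p under 0.05.

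**Figure D3:**
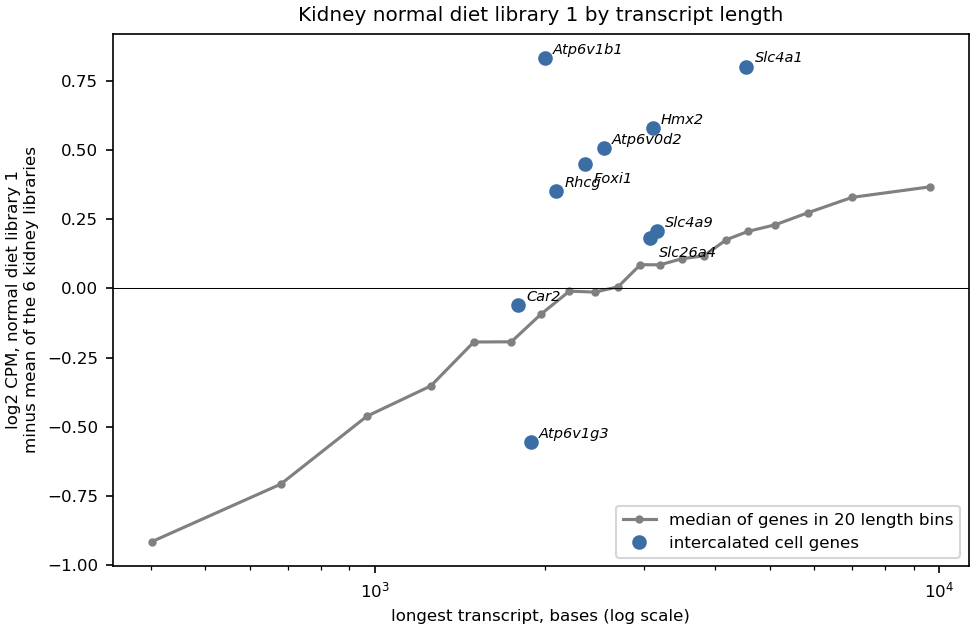
Log2 CPM in kidney normal diet library 1 minus the mean of the 6 kidney libraries (y axis), against the longest transcript in bases (log scale); the grey line joins medians of all tested genes in 20 bins of length, and blue points are the 10 genes. In all 9 of the 10 genes lie above the grey line, Atp6v1b1 (0.83) and Slc4a1 (0.80) by the most and Slc26a4 (0.18), Slc4a9 (0.21) and Car2 (-0.062) close to it, and Atp6v1g3 (-0.56) lies below it.

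Markers of other cells also differed in that library. Red cell markers summed to 351 CPM there, against 1199.7 to 1554 CPM in the other normal diet libraries and 732 to 1372 CPM on high salt, with 8 of the 11 markers listed and Ahsp, Rhag and Gata1 not rows of the kidney table. Slc4a1, which red cells also make, was thus highest in the kidney library with the lowest red cell sum. Proximal tubule markers (4 of 4 listed) summed to 2889 CPM in it, against 1682 to 1752 CPM and 1920 to 2504 CPM. Their longest transcripts are 15460 (Lrp2), 11262 (Cubn), 3983 (Slc34a1) and 2277 bases (Slc5a2). None of the sums given here was corrected for the length trend. Thick limb and distal convoluted tubule markers (4 of 4) summed to 2842 CPM, against 1865 to 2007 CPM and 1737 to 2223 CPM. Principal cell markers (7 of 7) summed to 180 CPM, against 121 to 142 CPM and 136 to 189 CPM. Single markers did not all follow the sums. Against both other normal diet libraries, library 1 was lower for the principal cell genes Avpr2 (4.60 against 8.78 and 7.504 CPM) and Fxyd4 (3.75 against 5.39 and 4.65 CPM) and for the proximal tubule gene Slc5a2 (53.5 against 73.0 and 72.3 CPM), and higher for the other 5 and 3 of those lists. The part of these differences in the values of the 10 genes was not tested.

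The 10 genes did not move as a single block over the 6 kidney libraries. Slc4a1 and Foxi1 went together most closely, with a Pearson correlation of log2 CPM of 0.98 and a Spearman rank correlation of 0.89. Their Pearson correlation was 0.98 without the 2 libraries furthest from the median of Slc4a1, 0.98 without normal diet library 1, and 0.99 with the length trend removed. Slc26a4 followed both, at 0.84 with Slc4a1 and 0.87 with Foxi1 (Spearman 0.94 and 0.77), and at 0.86 and 0.82 without the 2 furthest libraries. These correlations describe 6 libraries from 2 diets that share a sequencing depth range and the length trend.

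Slc4a1, Slc26a4, Atp6v1b1, Atp6v0d2, Foxi1 and Rhcg, a set picked after the values were seen, correlated positively in all 15 pairs (Pearson 0.57 to 0.98, Spearman 0.43 to 0.94). Without the 2 libraries furthest from the median of the first gene of a pair, 11 of the 15 stayed positive. Those of Atp6v1b1 and of Atp6v0d2 with Foxi1 turned from 0.72 and 0.74 to -0.19 and -0.30, so they rest on these libraries. Atp6v1g3 went against the set, at -0.90 with Slc4a1, -0.91 with Foxi1, -0.89 with Rhcg and -0.86 with Slc26a4 (Spearman -0.77, -0.77, -0.94 and -0.71). Without the 2 furthest libraries these were -0.91, -0.999, -0.90 and -0.77. Car2 was at -0.78 with Rhcg and -0.74 with Slc26a4 (Spearman -0.54 and -0.77), and at -0.74 and -0.22 without the 2 furthest libraries, so the latter rests on those. Over all 45 pairs of the 10 genes, 29 were positive.

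**Figure D4:**
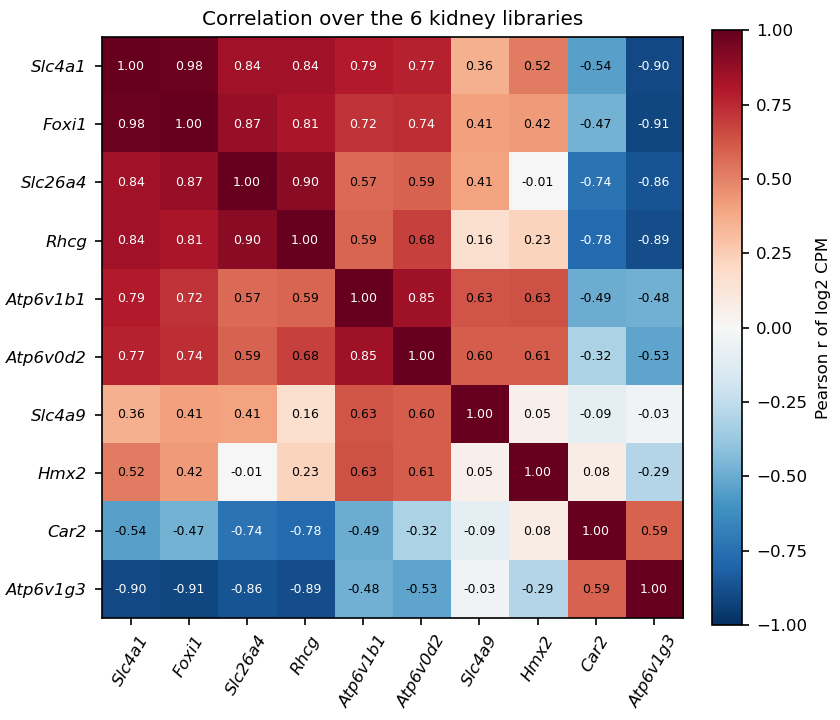
Pearson correlation of log2 CPM over the 6 kidney libraries for each pair of the 10 genes, from -1 (blue) to 1 (red). Slc4a1 and Foxi1 stand at 0.98, and Atp6v1g3 is negative with Slc4a1, Foxi1, Slc26a4 and Rhcg.

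Genes outside the lists with the most similar pattern were found against the mean standardized level of 9 of the 10 genes, Hmx2 having fewer than 50 counts on average. They were Senp1 (0.992), Fbf1 (0.991), Zkscan1 (0.989), Adamts15 (0.989) and Wdtc1 (0.989), as Pearson correlations over 6 libraries. In that order their longest transcripts were 6575, 5252, 8261, 5928 and 4191 bases, all in the longest class (from 3761 bases). Each of these genes was highest in normal diet library 1, where long transcripts were high. The part of the length trend in these correlations was not tested. Of 11824 genes compared, 708 (5.99%) were above 0.9. Of the 9 genes behind that mean, 7 correlated with it positively, while Atp6v1g3 (-0.64) and Car2 (-0.39) ran against it. Each of the 9 is itself part of the mean, which raises its correlation. Of 11 other intercalated cell genes compared 9 were positive, from Aqp6 at 0.59 to the transcription factor Tfcp2l1 at 0.95, and Slc26a7 (-0.86) and Car15 (-0.68) were negative. Markers of other cells spread as widely. The share of all genes with a positive correlation is not given here, so these counts set no list apart. Of 7 principal cell markers 5 were positive, up to Hsd11b2 at 0.95, and Avpr2 (-0.72) and Fxyd4 (-0.38) were negative. Of 4 proximal tubule markers 3 were positive, up to Cubn at 0.93, and Slc5a2 (-0.59) was negative.

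Levels between genes were compared per kb of the longest transcript, as mean ± SD over the 6 kidney libraries. Car2 led with 93.2 ± 15.7 CPM per kb, and its lowest library (73.6) was above the highest of Atp6v1g3 (52.8), which averaged 34.4 ± 14.02. Atp6v1b1 followed at 11.3 ± 4.55, just clear of Atp6v1g3, with 19.0 at its highest against 19.5. Atp6v0d2 (9.54 ± 1.97), Slc26a4 (7.61 ± 1.31), Rhcg (7.44 ± 1.57) and Foxi1 (5.65 ± 1.37) came next and overlapped in turn, and the lowest library of Foxi1 (3.98) was above the highest of Slc4a9 (3.86). Slc4a9 (3.21 ± 0.596) and Slc4a1 (2.90 ± 1.17) overlapped each other, and Hmx2 was lowest at 0.696 ± 0.183, below every library of Slc4a1. The kidney form of AE1 starts further downstream than the red cell form and is shorter, and counts per gene do not separate the 2.

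**Figure D5:**
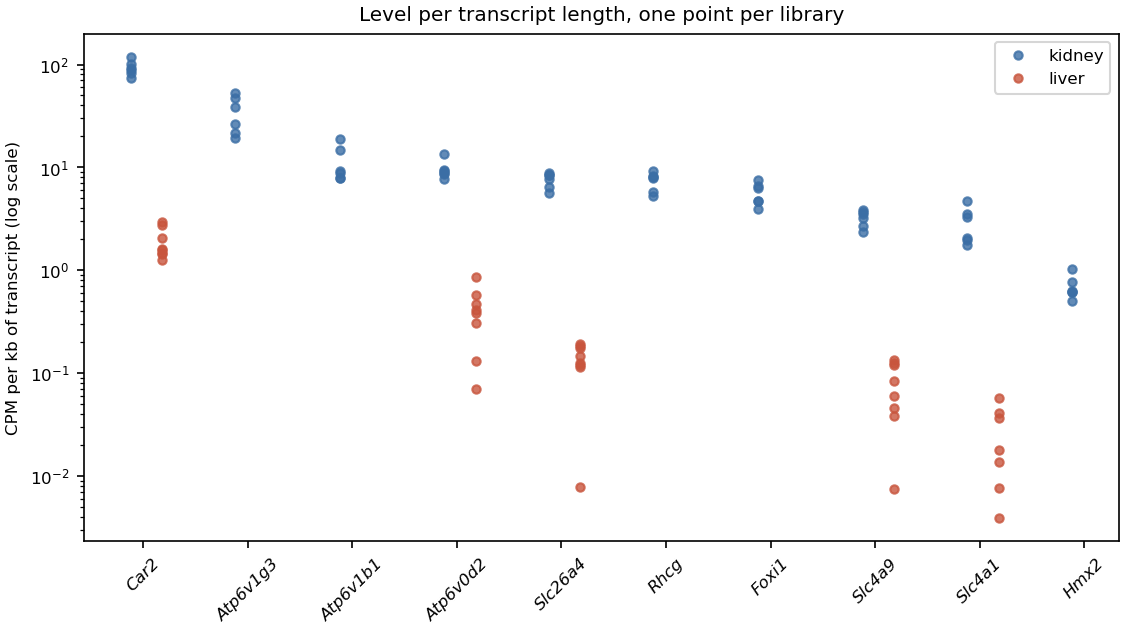
Level of each gene in CPM per kb of its longest transcript (log scale), with 1 point per library, kidney in blue and liver in red. A liver library with 0 counts of Slc4a1 is not drawn on the log axis. Car2 is highest in both organs, and the 5 genes with liver points lie lower there in every library.

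Ratios of these levels within a library describe the balance of type B and type A genes, not of the cells. They were not corrected for the length trend (3075 bases for Slc26a4 and 4545 for Slc4a1), and red cells also make Slc4a1. Slc26a4 per kb was 1.80, 3.26 and 3.19 times Slc4a1 on the normal diet and 2.502, 3.77 and 2.56 times on high salt, so the diets overlapped. Against Slc4a9, the other type B transporter, Slc26a4 was 2.33, 1.66 and 2.40 times as high on the normal diet and 2.495, 2.42 and 3.17 times on high salt. The diets did not overlap in that ratio, by a margin of 2.40 to 2.42, whereas the other kidney ratios given here overlapped. The ratio was not tested, and the share of other gene pairs without overlap is not known. No diet difference is therefore read from it. Foxi1 per kb was 1.59 to 2.42 times Slc4a1 in the 6 libraries.

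Pump subunits were set beside their general versions, which all cells use. Per kb, B1 (Atp6v1b1) was 11.7% to 23.9% of the sum of B1 and B2 (Atp6v1b2) in the 6 kidney libraries, d2 (Atp6v0d2) was 21.2% to 32.4% of the sum with d1 (Atp6v0d1), and G3 (Atp6v1g3) was 11.9% to 21.1% of the sum with G1 (Atp6v1g1). Subunit a4 (Atp6v0a4) stood apart at 86.2% to 91.5% of the sum with a1 (Atp6v0a1), and C2 (Atp6v1c2) was 14.2% to 18.9% of the sum with C1 (Atp6v1c1). B1, d2 and G3 were each the smaller partner in all 6 kidney libraries. G3 and G1 were both low in normal diet library 1, at 41.1 and 124 CPM, against 89.9 to 99.7 and 222 to 225 CPM in the other normal diet libraries.

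The wider lists gave no call in kidney either. Of 14 other intercalated cell genes tested, 0 were called, with 6 above zero, 8 below and a median log2 difference of -0.063. The smallest p-values were those of P2ry14, a receptor (0.31, SE 0.40), and of Rhbg, the basolateral ammonia transporter (-0.23, SE 0.31). Of 17 other pump subunits 0 were called, with a median of -0.014, and Atp6v1e1 (0.20, SE 0.19) and Atp6v0e (-0.25, SE 0.26) had the smallest p-values. Of 9 other carbonic anhydrases 0 were called, with 7 above zero and a median of 0.14. Car3 stood at 0.44 (SE 0.48) and Car4, the membrane-bound form of the proximal tubule, at 0.15 (SE 0.18). In the proximal tubule acid-base list 0 of 6 were called, with a median of -0.075. There the glutamine transporter Slc38a3 was at 0.86 (SE 0.46) and Pck1, an enzyme of ammonia and glucose production, at 0.31 (SE 0.32). Principal cell markers (0 of 7 called, median 0.12) were led by Fxyd4 (0.42, SE 0.23) and the water channel gene Aqp3 (0.27, SE 0.26).

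Among markers of other cells in kidney, edgeR called 0 of 4 for the thick limb and distal convoluted tubule, 0 of 4 for the proximal tubule, 0 of 6 for red cells and 0 of 6 for macrophages. Pvalb of the distal convoluted tubule stood at -0.92 (SE 0.33, unadjusted p = 0.0235) and Slc12a1 of the thick limb at -0.16 (SE 0.23). Slc34a1 stood at 0.35 (SE 0.23) and Slc5a2 at -0.19 (SE 0.20), both of the proximal tubule. The globin genes Hba-a2 (0.60, SE 0.22, unadjusted p = 0.0266) and Hba-a1 (0.50, SE 0.23) had the smallest p-values of the red cell list. Adgre1 (-0.44, SE 0.32) and Acp5 (0.28, SE 0.22) had those of the macrophage list. Hepatocyte markers, with 0 of 4 called, were led by Fgb (-1.75, SE 0.72, unadjusted p = 0.0397) and Alb (-1.31, SE 0.77). Fgb had only 14, 36 and 12 counts on the normal diet and 13, 4 and 3 on high salt. Alb had 54, 610 and 226 counts on the normal diet and 223, 76 and 110 on high salt. Both were highest in normal diet library 2.

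In liver the pump subunit Atp6v0d2 read lower in each high salt library than in any normal diet library, without passing the test. Its levels were 2.21, 1.20, 1.48 and 1.06 CPM on the normal diet (93, 44, 47 and 44 counts) and 0.178, 0.332, 0.790 and 0.989 CPM on high salt (10, 16, 38 and 56 counts). The diets did not overlap, as for 12.5% of all genes tested in liver, and HS5 and HS6, the libraries that lie closest to each other, were the lowest. The log2 difference was -1.37 (SE 0.50, unadjusted p = 0.0214, adjusted p = 0.174), so the difference did not pass the threshold. With HS5 and HS6 summed to 1 library it was -1.16 (SE 0.50, unadjusted p = 0.0450). Over the 15 alternatives the adjusted p was 0.0701 to 0.403 and the log2 fold change -1.78 to -1.07.

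Car2 stood at 4.97, 5.31, 2.89 and 2.26 on the normal diet, and at 2.59, 2.63, 2.83 and 3.69 on high salt, in CPM. Normal diet liver libraries 1 and 2 were high and the rest lay together. Its log2 difference was -0.39 (SE 0.30, unadjusted p = 0.213, adjusted p = 0.458), and without those 2 libraries it was 0.19. Leaving out 1 library, it ran from -0.59 without normal diet library 4 to -0.20 without normal diet library 2. They are also the libraries with the lowest share of mitochondrial transcripts, the range being 2.06% to 29.6% over the normal diet livers and 11.3% to 19.2% on high salt.

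The exchangers were close to the limit of detection in liver, where 3 counts correspond to 0.0530 to 0.0944 CPM. Slc26a4 had 23, 13, 19 and 1 counts on the normal diet and 22, 22, 27 and 21 on high salt. Only normal diet library 4 stood out. The log2 difference was 0.23 (SE 0.60, unadjusted p = 0.707), and -0.18 without that library. Slc4a9 had 1, 7, 12 and 5 counts on the normal diet and 24, 7, 19 and 15 on high salt, giving a log2 difference of 0.84 (SE 0.63, unadjusted p = 0.212), from 0.45 without normal diet library 1 to 1.46 without normal diet library 3. Kidney markers were also detected at low level in these livers. Proximal tubule markers (4 of 4 listed) summed to 0.476, 0.654, 1.42 and 0.529 CPM on the normal diet and to 1.19, 1.45, 6.94 and 4.12 CPM in HS5 to HS8, so that HS7 and HS8 were the highest. Slc34a1, the phosphate transporter of that segment, had 198 and 113 counts in HS7 and HS8 and 0 to 13 in the other livers. Their part in the low counts of the exchangers was not tested.

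Slc4a1 had 11, 3, 6 and 7 counts in the normal diet livers and 1, 0, 3 and 2 in the high salt livers. In 4 of the 4 high salt libraries it was at or under 3 counts, and it was not tested with the filter. Without the filter its log2 difference was -2.51 (SE 0.73, unadjusted p = 0.00562, adjusted p = 0.141), a fitted value that depends on how counts near 0 are treated. Red cell markers lay in the same direction in liver: 7 of the 11 were listed (Epb42, Ahsp, Rhag and Gata1 were not), and they summed to 726 to 1938 CPM on the normal diet and 272 to 721 CPM on high salt. Of the 6 tested, 6 were below zero and 5 had an unadjusted p under 0.05, with a median log2 difference of -1.30, and 0 were called. Their part in the Slc4a1 counts was not tested. Macrophage and osteoclast markers, cells that make Atp6v0d2, summed to 135 to 183 CPM on the normal diet and 129 to 157 CPM on high salt (6 of 6 listed), with 0 of 6 at an unadjusted p under 0.05 and a median of -0.12. Acp5 alone made up most of these sums, at 82.1 to 146 CPM on the normal diet and 94.3 to 101 CPM on high salt. The sums therefore mainly follow this gene. The part of these markers in the Atp6v0d2 values was not tested.

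None of the 4 genes tested in liver was called, where 1.00% of 15130 genes were (152 genes, 90 higher and 62 lower). At an unadjusted p under 0.05 there was 1 of the 4, against 21.2% of all genes. Their median log2 difference was -0.080, beside -0.023 over all genes. Of the general pump subunits 0 of 17 were called, with 15 below zero, 3 at an unadjusted p under 0.05 and a median of -0.27. The 3 were Atp6v0e (-0.63, SE 0.17), Atp6v0b (-0.80, SE 0.25) and Atp6v0d1 (-0.39, SE 0.13), a share of 17.6% that is below the 21.2% of all genes.

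Of 6 other intercalated cell genes tested in liver, 2 were called, where 1.00% of all genes tested were. This list was chosen with earlier results of these data known, so the count says nothing about intercalated cell genes as a set. Rhbg, which in liver takes up ammonia in the cells around the central vein, fell from 12.5 ± 3.84 CPM (SD, n = 4) to 2.54 ± 0.372 CPM (SD, n = 4). Its log2 difference was -2.30 (SE 0.24, edgeR adjusted p = 0.00517), and it was called in 15 of 15 alternatives. Tfcp2l1 rose from 2.03 ± 0.606 CPM to 5.17 ± 0.940 CPM, with a log2 difference of 1.35 (SE 0.26, edgeR adjusted p = 0.0451). It was called in 7 of 15 alternatives, with an adjusted p of up to 0.190. Its highest libraries were HS5 and HS6, at 6.02 and 5.76 CPM, against 3.93 CPM in HS7 and 4.96 CPM in HS8. As HS5 and HS6 lie closest to each other, counting them as 2 libraries may understate the spread behind this call. The diets did not overlap for either gene.

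Kidney and liver were compared on the normal diet in a fit of 16633 genes that both tables list. Of the 13669 that passed the filter on low counts in each organ, 29.2% were higher in kidney and 65.1% were called in either direction. The 4 genes that passed in each organ were higher in kidney in this edgeR fit. On the log2 scale Slc4a9 was higher by 5.37 (SE 0.50, adjusted p = 2.3e-07) and Slc26a4 by 5.25 (SE 0.46, adjusted p = 1.3e-07). These exchangers thus differed about 41.3-fold and 38.1-fold between the organs, from normal diet liver values of 1 to 23 counts. Car2 differed by 5.02 (SE 0.31, adjusted p = 2.5e-09). Atp6v0d2 had the smallest difference, 3.53 or 11.6-fold (SE 0.41, adjusted p = 2.4e-06). The organs have separate tables with different depths, 16046094 to 22004927 counts in kidney and 37267778 to 51487382 in liver, and the 4 genes were called in each alternative run for this comparison. Slc4a1 passed only through its kidney counts, so that no call is given for it: its levels were 7.99 to 21.6 CPM in the normal diet kidneys and 0.0817 to 0.262 CPM in the normal diet livers.

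The other lists showed which related genes separated the organs. Of 17 general pump subunits 6 were higher and 2 lower in kidney, with a median of 0.0028 on the log2 scale. Atp6v1a, the catalytic subunit, was higher by 2.86, Atp6v1b2 by 1.39 and Atp6v1g1 by 1.07, whereas Atp6v0d1 was at -1.50. The partner of d2 was therefore higher in liver while d2 was higher in kidney: d2 was 0.179% to 1.72% of the sum of d2 and d1 per kb in the 8 liver libraries. The kidney subunit Atp6v0a4 had 0 to 11 counts in the normal diet livers, and it was 0% to 1.18% of the sum of a4 and a1 in 7 liver libraries and 2.94% in HS7, the liver library with the highest sum of proximal tubule markers. Of the 6 other intercalated cell genes that passed in each organ, 5 were higher in kidney and Rhbg (-1.66) was lower. Of the 5 other carbonic anhydrases that did, Car5b (3.47) was higher in kidney and Car5a (-6.72), Car3 (-6.38) and Car8 (-3.17) were lower. Car4 and Car12 did not pass in liver, with 0 to 3 and 0 to 2 counts on the normal diet.

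Whether the diet difference itself differed between the organs was tested as an interaction, kidney minus liver. None of the 4 genes that passed in each organ was called, where 0% of 16633 genes were called and 10.1% had an unadjusted p under 0.05. Atp6v0d2 had a log2 difference of 1.26 with a standard error of 0.57 (edgeR, unadjusted p = 0.0441, adjusted p = 0.482). Its kidney and liver diet differences were -0.13 and -1.37, and with HS5 and HS6 summed the interaction was 1.06 (unadjusted p = 0.0714). Slc4a9 was at -0.92 (SE 0.66), Car2 at 0.10 (SE 0.39) and Slc26a4 at 0.054 (SE 0.64). Slc4a1 is not read here, since in liver it had 0 to 11 counts and did not pass the filter.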

How the data were processed

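Gene expression was measured by RNA-seq in kidney and liver of mice on 2 diets. Groups follow the labels' tissue and diet, and table columns were matched to samples by name. Expected counts of each gene were deposited, the output of Partek's expectation-maximisation step as the file headers and names state. Per the submitters' processing notes the tools were Partek 7.0, STAR 2.5.3a and DESeq2 with build mm10, in no stated order. A second deposited table holds normalized signal on a linear scale, whose method is not given in the sources used here. Of the deposited counts 63.8% were whole in kidney and 58.2% in liver.

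The rounded expected counts went into edgeR 4.0.16 in R 4.3.3 (TMM scaling, filterByExpr, quasi-likelihood test), with Benjamini-Hochberg adjustment over all genes tested and a threshold of 0.05. The fits were checked on simulated counts. CPM used TMM library sizes, log2 CPM a prior count of 2, and levels per kb the longest basic GENCODE M21 transcript (GRCm38). The floor for a count of 0 is 3 counts, and it covers counting error only, since reads that carry no molecular identifier can be copies. The length trend was a lowess of log2 CPM on transcript length per library (span 0.3). Promoters are from RefSeq (GRCm38.p6).

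The 10 genes and the lists were chosen with earlier results of these data known, and 1 further red cell marker is not reported here. Named genes were all 10, called genes of each list, the 2 genes of smallest p per list in kidney, both partners of subunit pairs, and the 5 genes most like the 10. Alternatives were RLE scaling, DESeq2 1.42.0, no filter, no mitochondrial genes, limma 3.58.1 on the normalized values (log2 of value + 1, mean of at least 10), a replicate block in kidney, HS5 and HS6 summed, no normal diet livers 1 and 2, and each library left out. The length offset was added after seeing the data.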

Additional observations from a re-analysis of the deposited data

How the results depend on the processing

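In kidney no alternative called any of the 10 genes, and the number of all genes called was 0 in each except DESeq2, which called 11; leaving out each library in turn gave 0 throughout. Every turned sign in kidney came from leaving out 1 library: Slc4a1 ranged from -0.18 to 0.68, Slc4a9 from -0.26 to 0.066, Foxi1 from -0.072 to 0.43, Atp6v1b1 from -0.52 to 0.30 and Atp6v0d2 from -0.28 to 0.15 on the log2 scale. Same-numbered kidney libraries correlated at 0.41, 0.37 and -0.090 in their deviations from the diet means, so the numbers do not pair them by the rule of 0.1, and not every library correlated best with its own number. A replicate block moved the number of genes at an unadjusted p under 0.05 from 318 to 459 and called 0. No paired analysis was possible in liver because the high salt columns carry no numbers of titled samples.

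In liver 0 of the 4 genes were called in any alternative. The count of all genes called moved from 152 to 1122 with DESeq2, 12 with HS5 and HS6 summed and 52 without normal diet libraries 1 and 2, and ranged from 12 to 765 with each library left out. Car2 turned to 0.19 without normal diet libraries 1 and 2, and with each library left out Slc26a4 ranged from -0.18 to 0.51 and Slc4a9 from 0.45 to 1.46. In the interaction, DESeq2 called 148 genes and leaving out libraries 0 to 7, with Slc26a4 from -0.23 to 0.48 and Car2 from -0.11 to 0.31. There 0 of the 4 genes that passed in each organ were called. Between the organs the count ranged from 9758 to 10790 with each library left out, and the 4 genes that passed in each organ were called each time. The cause of these changes was not tested. Depth limits Slc4a1, Slc26a4 and Slc4a9 in liver and Hmx2 in kidney.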
